A study of Mus musculus with 6 samples.

Results

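The amino acid transporters of activated CD8 T cells were followed as 10 genes: *Slc7a5*, *Slc3a2*, *Slc1a4*, *Slc1a5*, *Slc38a1*, *Slc38a2*, *Slc7a1*, *Slc7a6*, *Slc7a11* and *Slc43a1*. They were taken as every probe set that the array annotation pairs with exactly 1 gene, that gene being one of the 10. This gave 20 probe sets among 34945 single-gene probe sets, and 10 genes among 18194. The 6 arrays comprised 3 of CTL expressing a GFP-KLF2 fusion protein and 3 of CTL carrying the empty vector, called evGFP. All cells came from spleens of C57BL/6 mice aged 8 to 12 weeks, transgenic for the P14 T cell receptor, which recognises a peptide of LCMV. Splenocytes received the peptide for 48 hours, were transduced by retrovirus 18 hours after its addition, spent a further 48 hours in IL-2, and were sorted for GFP at day 4. The fusion protein is thus driven by a retroviral vector from the first day of activation onwards, and both groups keep the endogenous *Klf2* gene. The comparison asks how CTL with KLF2 enforced by the vector differ from evGFP CTL in the transcripts of these transporters.

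T cells that divide after antigen take up large amounts of amino acids, both as building blocks and as a signal to the kinase mTORC1. *Slc7a5* encodes LAT1, the main importer of leucine and other large neutral amino acids, which works only when bound to the heavy chain CD98, encoded by *Slc3a2*. *Slc7a6* and *Slc7a11* encode 2 further light chains of the same heavy chain. Glutamine and other small neutral amino acids enter with sodium through the products of *Slc1a5*, *Slc1a4*, *Slc38a1* and *Slc38a2*, and arginine and lysine enter through that of *Slc7a1*. Several of these genes are known targets of ATF4, the transcription factor of the amino acid response, and of MYC.

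The arrays separated by group, with Pearson's correlations across probe sets of 0.993 to 0.996 within a group and 0.982 to 0.990 between groups. Values are log2 of the deposited RMA intensities. Array medians lay at 5.64 to 5.67 and lower quartiles at 4.18 to 4.25, and a probe set near the lower quartile carries little information on a transcript. The known KLF2 target *S1pr1* had 9.49 ± 0.03 in GFP-KLF2 and 7.49 ± 0.38 in evGFP CTL (SD, n = 3 each, log2 fold change 2.00, limma adjusted p = 0.00125). The probe set of *Klf2* itself, with 9.41 ± 0.59 and 10.05 ± 1.13 (GFP-KLF2 and evGFP, adjusted p = 0.552), reads a part of the transcript that the construct lacks and does not check the labels. All 8 CD8 T cell markers had group means between 10.13 and 14.82, and 1 of them, *Cd8b1*, rose by 0.45. Of 18 markers of B, myeloid, CD4, NK and erythroid cells 14 were measured, with group means of 4.08 to 7.32, and 0 passed limma's adjusted threshold, while *Cd68* passed with the replicate number as a block (adjusted p = 0.0252). At an unadjusted p under 0.05, *Cd79a*, *Ms4a1* and *Cd68* were higher. The summed linear intensity of these 14 was 760 to 871 in GFP-KLF2 and 696 to 733 in evGFP arrays, so the groups did not overlap, and their part in the results was not tested. In bulk RNA, fewer cells of a type and less RNA per cell cannot be told apart.

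Most amino acid transporter transcripts differed little between CTL with and without enforced KLF2. *Slc38a2* was the member that rose, by 1.45-fold at its brightest probe set. Its other probe sets were 1.23- and 1.10-fold higher and did not pass. The close relative *Slc38a1* was 1.23-fold lower at its brightest probe set, which did not pass. Its other probe set was 1.27-fold lower and passed narrowly, a call lost when any single array was left out. For the transcripts of the light chain LAT1 and its heavy chain CD98, the arrays of the groups overlapped and the differences did not pass. Of the 20 probe sets 1 rose and 1 fell at an adjusted p under 0.046, against 4.76% higher and 6.39% lower among all 45037 probe sets. With each gene given by its brightest probe set, 1 of 10 rose and 0 fell, against 6.22% and 8.35% of 18194 genes. The members' shares thus lay near those of the whole array. At an unadjusted p under 0.05, limma placed 1 of the 10 genes higher and 4 lower, against 12% and 17.7% of all genes. No member passed with a 2-fold change in either direction, where 2.23% of all genes rose and 0.715% fell. The 95% confidence interval of every one of the 20 probe sets lay within a 2-fold change, and that of 18 lay within a 1.5-fold change. Such intervals are common, since 91.9% of all genes had one within 2-fold.

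**Figure D1:**
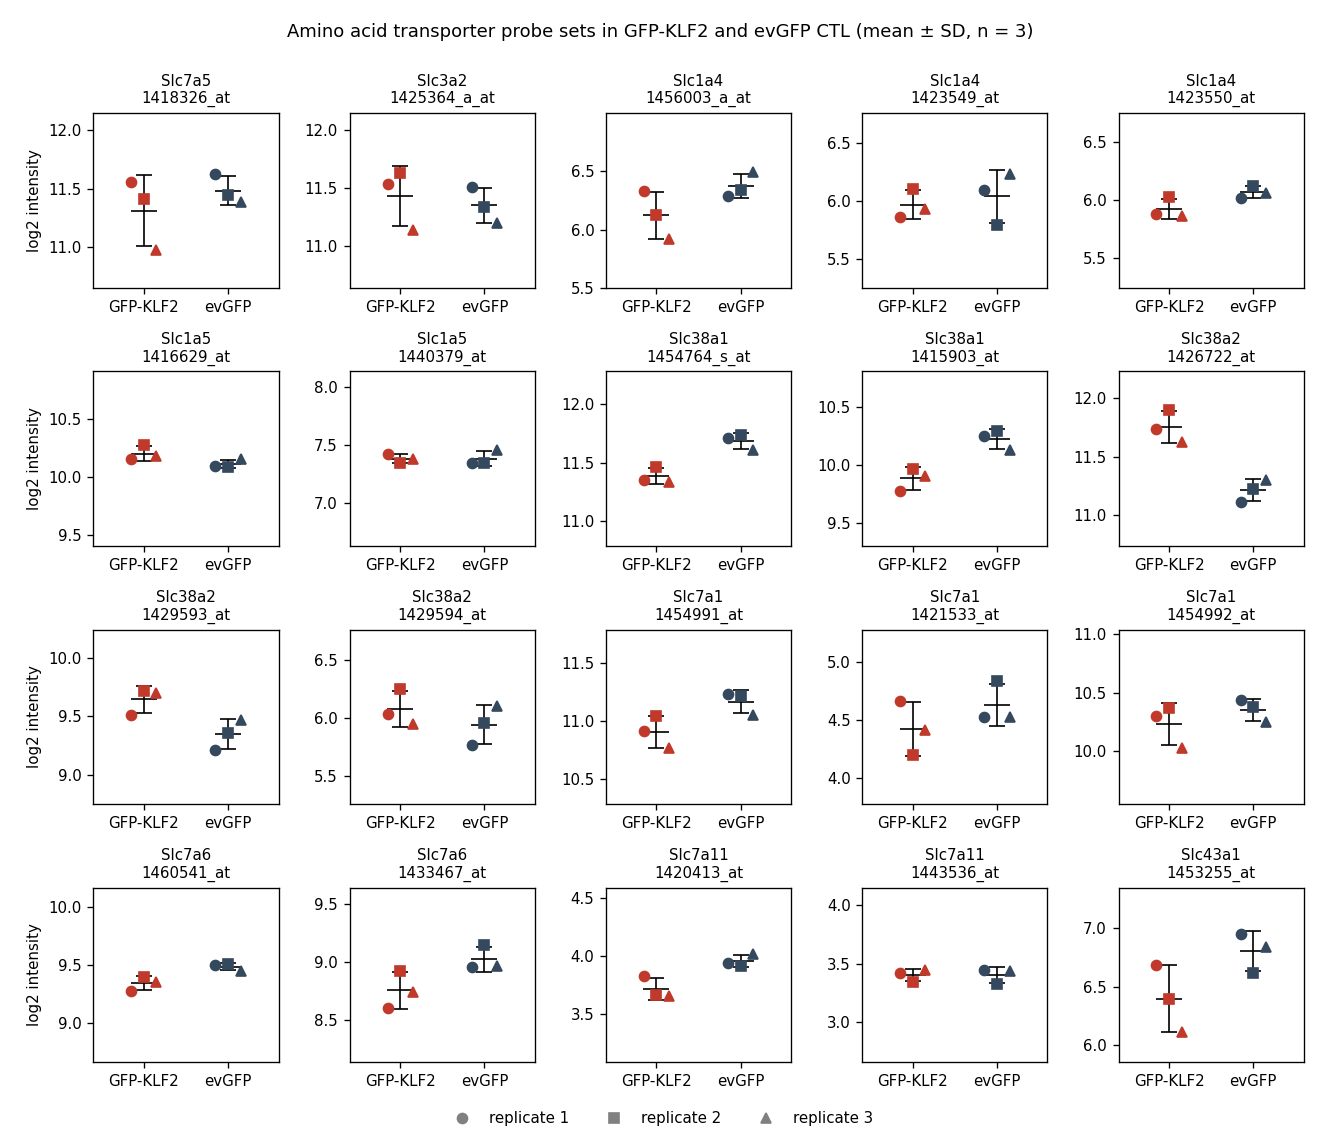
Log2 intensity (vertical axis) of each of the 20 probe sets in the 3 GFP-KLF2 and 3 evGFP arrays. Symbols are the replicate numbers, bars the mean ± SD (n = 3), and every panel spans 1.5 log2 units. The groups are apart in both *Slc38a1* and both *Slc7a6* panels, in the first 2 *Slc38a2* panels and in the first of *Slc7a1* and *Slc7a11*. They overlap in the others, among them those of *Slc7a5* and *Slc3a2*.

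*Slc38a2* encodes SNAT2, a sodium-coupled carrier of glutamine, alanine and other small neutral amino acids, whose gene is induced in many cells when amino acids run short. Its brightest probe set, 1426722_at, had 11.74, 11.90 and 11.62 in GFP-KLF2 arrays 1 to 3, against 11.11, 11.22 and 11.30 in evGFP arrays 1 to 3. All 3 GFP-KLF2 arrays lay above all 3 evGFP arrays, and each lay above the evGFP array of its own number, by 0.62, 0.67 and 0.32. The means of 11.75 ± 0.14 and 11.21 ± 0.09 (GFP-KLF2 and evGFP, SD, n = 3) differed by 0.54 on the log2 scale, with a standard error of 0.10 and a 95% interval of 0.31 to 0.77 (limma adjusted p = 0.014). The call depended on single arrays, since it was lost without GFP-KLF2 replicate 1, evGFP replicate 1 or evGFP replicate 2 (adjusted p = 0.0491, 0.0521 and 0.0551). The log2 fold change itself was 0.47 to 0.60 whichever single array was left out. A second probe set, 1429593_at, had 9.52, 9.72 and 9.70 in GFP-KLF2 arrays and 9.21, 9.36 and 9.47 in evGFP arrays. Its groups did not overlap either, and its log2 fold change of 0.30 did not pass (adjusted p = 0.101) but did with the replicate number as a block (0.0414). The third, 1429594_at, lay lower, at 5.95 to 6.25 in GFP-KLF2 and 5.77 to 6.10 in evGFP arrays, where the groups overlapped (0.13, adjusted p = 0.571). All 3 probe sets thus had a positive difference, of unequal size.

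Because KLF2 acts on promoters through GC-rich boxes, the bases upstream of annotated starts of member genes were read from RefSeq (GRCm38.p6). The sequence of the member that rose is shown first. The window used for searching runs from 250 bases before to 50 after each annotated start, and the 250 bases before it are printed. It lies at chr15:96699729-96699978 on the minus strand for *Slc38a2*, and at chr3:50443614-50443863 on the minus strand for *Slc7a11*, a member that did not pass in either direction and whose promoter carries another kind of element. The *Slc7a11* window lies inside the annotated span of that gene, as do those of *Slc3a2*, *Slc7a6* and *Slc43a1* and 1 of *Slc7a1*. Capitals mark matches to the KLF/Sp box in the first sequence, and matches to the C/EBP-ATF core in the second.
Slc38a2: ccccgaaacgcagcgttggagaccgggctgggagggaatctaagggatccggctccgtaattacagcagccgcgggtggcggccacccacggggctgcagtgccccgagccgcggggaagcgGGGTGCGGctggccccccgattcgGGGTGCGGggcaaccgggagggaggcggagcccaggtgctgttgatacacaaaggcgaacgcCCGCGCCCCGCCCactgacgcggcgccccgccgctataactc
Slc7a11: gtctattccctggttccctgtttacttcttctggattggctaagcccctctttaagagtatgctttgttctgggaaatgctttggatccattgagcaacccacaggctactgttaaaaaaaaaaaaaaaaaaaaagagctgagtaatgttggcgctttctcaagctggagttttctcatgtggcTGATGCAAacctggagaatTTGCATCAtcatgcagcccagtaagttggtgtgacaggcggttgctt
The KLF/Sp box was searched as CCNCNCCC on both strands. The *Slc38a2* window held 4 matches, starting at bases 123, 147, 209 and 214 from its 5′ end, the last 2 overlapping each other. Windows of *Slc1a4* and *Slc7a6*, which did not rise, held 3 each. Of the 10 genes 7 had a window, 9 windows in all, and 6 of these 7 genes held at least 1 such match. Counted by window rather than by gene, 49.5% of all 32851 windows did. The windows of the 6 had a GC content of 51.7% to 76.7%. A match describes letters only, not a bound site. The core of the C/EBP-ATF response element, through which ATF4 acts, was searched as TGATGNAA. It was found 2 times in the window of *Slc7a11* and 1 time in that of *Slc1a4*, against 3.97% of all windows with at least 1. An E-box, CACGTG, was found in the window of *Slc43a1*, against 7.15% of all windows. Windows for *Slc7a5*, *Slc1a5* and *Slc38a1* were not used here.

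*Slc38a1* encodes SNAT1, a carrier with much the same substrates as SNAT2. The 2 genes are neighbours on one chromosome, with 3 annotated genes and 0 protein-coding genes between them. Probe set 1415903_at had 9.78, 9.97 and 9.91 in GFP-KLF2 arrays 1 to 3, against 10.25, 10.29 and 10.13 in evGFP arrays 1 to 3. Every GFP-KLF2 array lay below every evGFP array. The level fell by 0.34 on the log2 scale (means 9.88 ± 0.10 in GFP-KLF2 and 10.22 ± 0.08 in evGFP CTL, with a 95% interval of -0.54 to -0.14 for the difference, SE 0.09, adjusted p = 0.044). The brighter probe set, 1454764_s_at, had 11.35, 11.46 and 11.33 in GFP-KLF2 arrays and 11.71, 11.74 and 11.60 in evGFP arrays, again with no overlap. Its log2 fold change of -0.30 was just outside the threshold (adjusted p = 0.0494, 0.0387 with the replicate block). Its suffix marks probes that can match transcripts of more than 1 gene. The call of 1415903_at lay just inside the threshold and was lost with any 1 array left out (adjusted p = 0.0498 to 0.146). It was also lost after cyclic loess (-0.24, adjusted p = 0.138), after quantile normalization (0.0594) and without cross-hybridising probe sets (0.0468). With the replicate block 2 member probe sets rose and 2 fell, against 6.73% and 9.53% of all probe sets, and 1 member gene rose and 1 fell, against 8.58% and 12.1% of all genes.

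**Figure D2:**
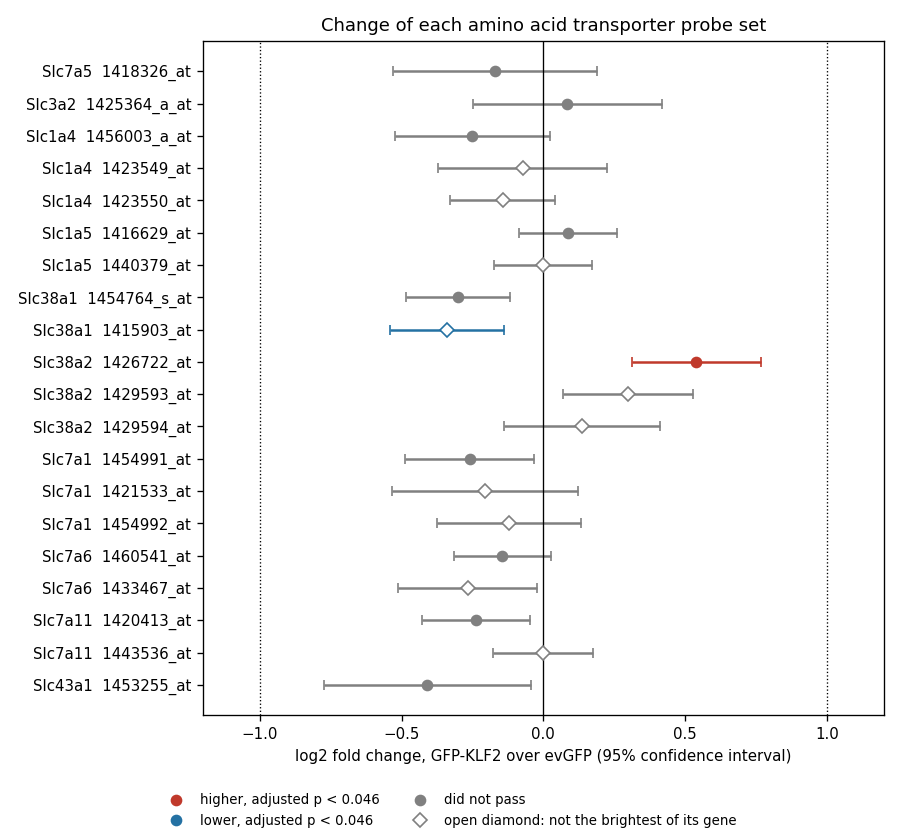
Change in GFP-KLF2 over evGFP CTL on the log2 scale (horizontal axis) with its 95% confidence interval for each of the 20 probe sets. Red marks the 1 that rose, blue the 1 that fell, grey those that did not pass, and open diamonds the dimmer probe sets of a gene. The dotted lines mark a 2-fold change, which none of the intervals reaches.

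The other sodium-coupled carriers showed smaller differences. *Slc1a5* encodes ASCT2, a glutamine exchanger that activated T cells use heavily. Its brighter probe set had 10.15, 10.28 and 10.18 in GFP-KLF2 arrays and 10.10, 10.09 and 10.16 in evGFP arrays, which overlapped (a difference of 0.09 with a 95% interval of -0.08 to 0.26, adjusted p = 0.55). The interval for its dimmer probe set was -0.17 to 0.17. *Slc1a4* encodes ASCT1, a related exchanger of alanine, serine, cysteine and threonine. Its 3 probe sets lay close to the array median, at group means of 5.92 to 6.12 in GFP-KLF2 and 6.04 to 6.37 in evGFP CTL. Their log2 fold changes of -0.25, -0.07 and -0.14 did not pass (adjusted p = 0.243, 0.801 and 0.332), and the second turned to 0.02 with array weights or without evGFP replicate 3.

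LAT1 and CD98 form 1 heterodimer, and their transcripts are given together. *Slc7a5* had 11.55, 11.41 and 10.97 in GFP-KLF2 arrays 1 to 3, against 11.63, 11.44 and 11.38 in evGFP arrays 1 to 3. The third GFP-KLF2 array was the low one, and the other arrays of the 2 groups overlapped. The difference was -0.17 on the log2 scale, with a standard error of 0.15 and a 95% interval of -0.53 to 0.19 (adjusted p = 0.583). *Slc3a2* had 11.53, 11.63 and 11.14 in GFP-KLF2 arrays and 11.51, 11.34 and 11.20 in evGFP arrays. Here too the third GFP-KLF2 array was lowest, and the groups overlapped (a difference of 0.08 with a 95% interval of -0.25 to 0.42, adjusted p = 0.792). These intervals leave room for a modest change in either direction, and a p above the threshold does not show equal levels.

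*Slc7a6* encodes y+LAT2, a light chain of CD98 that exchanges arginine for glutamine with sodium. Its brighter probe set had 9.28 to 9.40 in GFP-KLF2 and 9.45 to 9.51 in evGFP arrays, and its dimmer one 8.61 to 8.92 and 8.96 to 9.15 in the same order. In both, all GFP-KLF2 arrays lay below all evGFP arrays. The log2 fold changes of -0.14 and -0.27 did not pass (adjusted p = 0.285 and 0.165). *Slc7a11* encodes xCT, the CD98 light chain that exchanges cystine for glutamate and feeds glutathione synthesis. Its brighter probe set had 3.83, 3.67 and 3.65 in GFP-KLF2 arrays and 3.94, 3.91 and 4.01 in evGFP arrays, all under the lower quartile of the arrays. The groups did not overlap, and the log2 fold change of -0.24 (adjusted p = 0.112) comes from a signal at the low end. Its other probe set had group means of 3.40 in both groups.

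*Slc7a1* encodes CAT1, which carries arginine, lysine and ornithine. Probe set 1454991_at had 10.91, 11.04 and 10.77 in GFP-KLF2 arrays, against 11.23, 11.21 and 11.05 in evGFP arrays. The groups were apart by a narrow gap, and the log2 fold change of -0.26 did not pass (95% interval -0.49 to -0.03, adjusted p = 0.146, 0.0689 with the replicate block). A second bright probe set differed by -0.12 (adjusted p = 0.588). The third lay near the lower quartile, at 4.42 ± 0.23 in GFP-KLF2 and 4.63 ± 0.18 in evGFP CTL (SD, n = 3 each). *Slc43a1* encodes LAT3, which moves leucine and other neutral amino acids without sodium and without CD98. Its single probe set had 6.68, 6.39 and 6.11 in GFP-KLF2 arrays and 6.95, 6.62 and 6.84 in evGFP arrays. The groups overlapped at the first GFP-KLF2 array, and the log2 fold change of -0.41, the most negative among the members, did not pass (95% interval -0.77 to -0.05, adjusted p = 0.152).

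Across the family the differences leaned downwards. By the brightest probe set 7 of 10 genes had a negative log2 fold change, with a median of -0.20, against 51.6% of all genes and a median of -0.01. Among 3028 genes with a mean of at least 10 the median was -0.07. Arrays of the 2 groups did not overlap for 8 of the 20 probe sets, with GFP-KLF2 higher in 2 and lower in 6, against 12.5% and 17.3% of all probe sets. By gene this was 1 higher and 4 lower of 10, against 14.3% and 20.6% of all genes. No test was made of the family as a whole, and several of its probe sets read the same transcript. The third GFP-KLF2 array had the lowest value of the 6 for 9 of the 20 probe sets. In the pairs of arrays with the same number, the median difference over the 10 genes was -0.09, -0.14 and -0.28 for replicates 1 to 3, where all genes had -0.03, -0.02 and -0.00083. *Slc38a2* and *Slc1a5* were higher and *Slc38a1*, *Slc7a1*, *Slc7a6*, *Slc7a11*, *Slc7a5* and *Slc43a1* were lower in all 3 pairs. Some of these differences were slight, such as 0.02 for *Slc1a5* in pair 3 and -0.03 for *Slc7a5* in pair 2. Shares over the whole array are not given for these signs or for the lowest array. *Slc3a2* and *Slc1a4* changed sign between pairs.

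**Figure D3:**
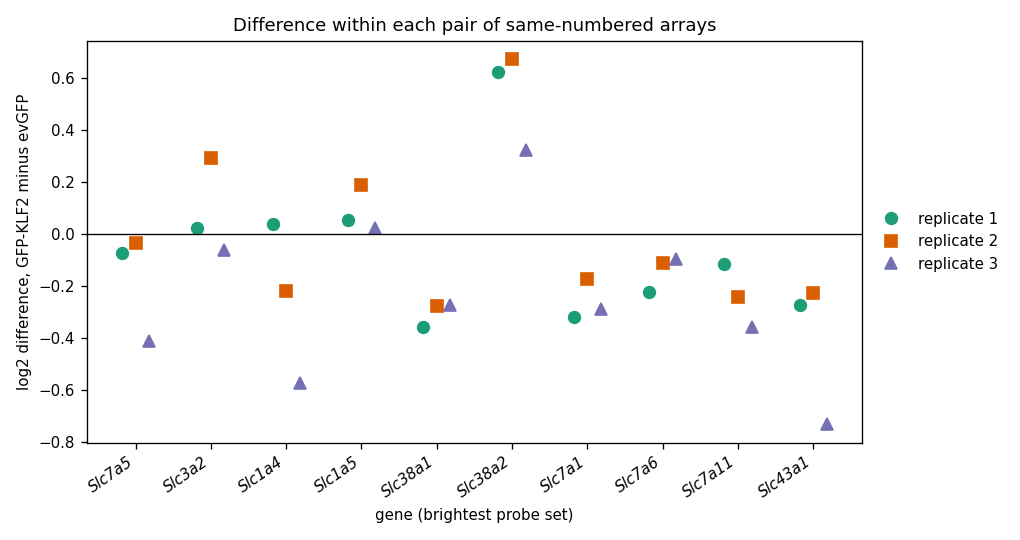
Log2 difference between the GFP-KLF2 and the evGFP array of the same replicate number (vertical axis) for the brightest probe set of each of the 10 genes. The points of *Slc38a2* lie at 0.62, 0.67 and 0.32, and those of *Slc7a5* at -0.07, -0.03 and -0.41.

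Known regulators of these genes were read in the same fit. *Atf4* had 12.62 ± 0.28 in GFP-KLF2 and 12.54 ± 0.15 in evGFP CTL (log2 fold change 0.08, adjusted p = 0.83). *Myc* had 12.23 ± 0.23 and 12.15 ± 0.36 (GFP-KLF2 and evGFP, adjusted p = 0.854), *Hif1a* had a log2 fold change of 0.15 (0.462) and *Nfe2l2*, which encodes NRF2, of 0.12 (0.877). None of the 4 passed limma's test, whether adjusted or at an unadjusted p under 0.05. ATF4 and NRF2 are controlled in large part at the level of protein, which these arrays do not measure.

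Genes of the amino acid response moved both ways. Of 25 measured genes of this response and ATF4 targets 3 rose and 4 fell, against 6.22% and 8.35% of all genes. Their median log2 fold change was -0.08. With the replicate block 3 rose and 6 fell, against 8.58% and 12.1% of all genes. The stress regulators *Nupr1* and *Trib3* rose by 4.96 and 1.19, and *Eif2ak3*, which encodes the kinase PERK, rose by 0.78. *Eif2ak4*, which encodes the kinase GCN2, went the other way, with -0.82 and no overlap of the groups. It did not pass (limma adjusted p = 0.061) but did with the replicate block (0.0115). *Asns*, the asparagine synthetase, fell by 0.78, and the serine synthesis enzymes *Phgdh* and *Psph* fell by 0.86 and 0.70. Of 19 measured cytosolic aminoacyl-tRNA synthetases 3 rose and 4 fell (median -0.22), with *Aars* at 0.82 and *Sars* at 0.54 against *Eprs* at -0.43. Limma placed 4 of the synthetases higher and 8 lower at an unadjusted p under 0.05, against 12% and 17.7% of all genes. Without overlap of the groups, 4 were higher and 11 lower, against 14.3% and 20.6%. With 1 array left out, 0 to 4 of the synthetases rose and 0 to 1 fell. The number that fell was 1 or 0 whichever of the 6 arrays was left out, and the number that rose was 1 or 0 without GFP-KLF2 replicate 1 or 2 or evGFP replicate 1, 2 or 3.

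Against 6.22% and 8.35% of all genes, 1 of 23 other plasma membrane amino acid transporters rose and 0 fell (median 0.01). It was *Slc7a7*, another CD98 light chain, with 6.04 ± 0.43 in GFP-KLF2 and 5.25 ± 0.13 in evGFP CTL (log2 fold change 0.80, adjusted p = 0.0424). It was not called without GFP-KLF2 replicate 2 or 3 or evGFP replicate 1, 2 or 3. At an unadjusted p under 0.05, limma placed 1 of this list higher and 2 lower, against 12% and 17.7% of all genes. *Slc7a3* (-0.68) passed with the replicate block and without evGFP replicate 2. Of 20 measured carriers of lysosomes, mitochondria and other organelles 0 rose and 3 fell (median -0.10), against 6.22% and 8.35% of all genes. With the replicate block 7 of them fell, against 12.1% of all genes. At an unadjusted p under 0.05, limma placed 2 of them higher and 6 lower, against 12% and 17.7%. Without evGFP replicate 3, 1 of them rose. The 3 that fell were the mitochondrial carriers *Slc25a13* for aspartate and glutamate (-1.28), *Slc25a15* for ornithine (-0.57) and *Sfxn1* for serine (-0.57).

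Among 30 measured genes of mTORC1 and its amino acid sensors 3 rose and 3 fell (median -0.15), against 6.22% and 8.35% of all genes. More leaned downwards. Limma placed 4 higher and 11 lower at an unadjusted p under 0.05, against 12% and 17.7% of all genes. Without overlap of the groups, 5 were higher and 13 lower, against 14.3% and 20.6%. *Castor1*, which encodes an arginine sensor, had 11.04 ± 0.12 in GFP-KLF2 and 9.30 ± 0.26 in evGFP CTL (log2 fold change 1.74, adjusted p = 0.00092). *Nprl2* (0.48) and *Rheb* (0.41) also rose, while the GTPase *Rragd* had -1.18, *Mios* -0.42 and *Seh1l* -0.29. With the replicate block 2 fell, since *Seh1l* no longer passed (adjusted p = 0.0544). Only 1 rose without GFP-KLF2 replicate 2 or evGFP replicate 1 or 2, and 1 fell without GFP-KLF2 replicate 1 or 2 or evGFP replicate 1, 2 or 3.

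Of 20 measured genes that use glutathione, glutamine or branched-chain amino acids 0 rose and 5 fell (median -0.11). Among all genes 6.22% rose and 8.35% fell. With the replicate block 1 of the list rose and 6 fell, against 8.58% and 12.1% of all genes. At an unadjusted p under 0.05 limma placed 1 higher and 7 lower, against 12% and 17.7%. *Bckdhb*, a subunit of the branched-chain keto acid dehydrogenase, had a log2 fold change of -1.15, and the aspartate aminotransferases *Got1* and *Got2* had -0.70 and -0.52. The number that fell was 3 without GFP-KLF2 replicate 1 or evGFP replicate 1 or 2. The 1 that rose with the block was *Glul* (0.34), the glutamine synthetase, and 1 gene of the list rose without evGFP replicate 3. Of 7 carriers for glucose, lactate and iron 2 rose and 1 fell (median 0.39), against 6.22% and 8.35% of all genes. With the replicate block 2 of them rose and 2 fell, against 8.58% and 12.1%. *Slc2a1*, which encodes GLUT1, rose by 0.88 and *Slc2a6* by 1.33, and *Tfrc*, which encodes the transferrin receptor CD71, had -0.37. Without GFP-KLF2 replicate 1 or evGFP replicate 1 1 gene rose and 0 fell, without evGFP replicate 2 the counts were 0 and 0, and without GFP-KLF2 replicate 2 or 3 again 0 fell.

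**Figure D4:**
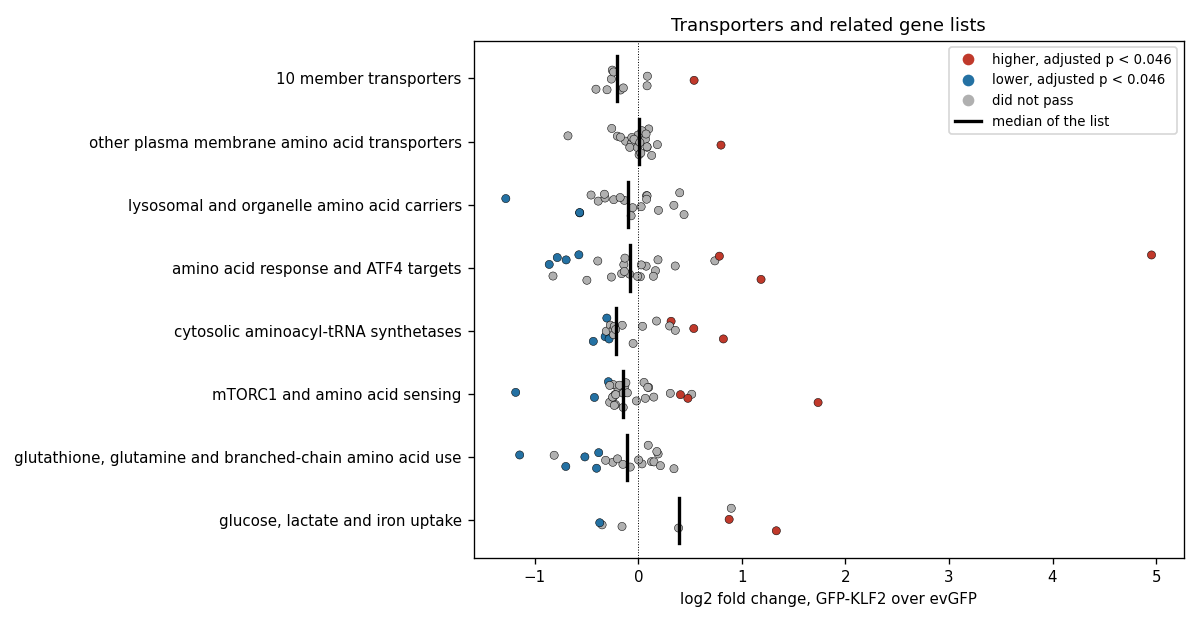
Change in GFP-KLF2 over evGFP CTL on the log2 scale (horizontal axis) for the 10 transporters and each measured gene of 7 related lists, by brightest probe set. Red points rose, blue points fell, grey points did not pass, and the black bar is the median, at -0.20 for the transporters and 0.39 for glucose, lactate and iron uptake.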

How the data were processed

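RNA of the 6 sorted CTL populations was hybridised to Affymetrix mouse genome-wide 3′ expression arrays. Per the methods and the submitters' processing notes, the authors made the deposited intensity values by RMA, which corrects background, quantile-normalises between arrays and summarises the probes of a set, and ran limma on them. Tool versions are not given in the sources used here, and no raw array file was used. The deposited intensities are linear, from 5.74 upwards, and their log2 was taken.

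After removal of 64 control probe sets from 45101, limma 3.58.1 in R 4.3.3 was fitted to all 45037, with 1 constant per group, moderated variances, 2-sided tests and Benjamini-Hochberg adjustment over all of them. The threshold was an adjusted p under 0.046. The methods print 0.046%, which was an alternative, as was 0.05. Single-gene annotation covered 34945 probe sets, several genes 932 and no gene 9160, and symbols were updated through RefSeq for 34741. Each gene is represented by its brightest probe set (highest average log2 value). RMA tends to compress fold changes, and the number of arrays limits precision, since an exact permutation test of 3 against 3 arrays cannot go below p = 0.1.

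The labels call the replicates biological without naming animals or cultures, so p measures the spread between these samples. After subtraction of group means, arrays correlated at 0.325, 0.442 and 0.466 within the same number and at -0.38 to 0.0578 otherwise, so the numbers were taken as pairing the arrays. A fit with the number as a block was an alternative.

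The named genes are all 10 members, the 4 regulators, *Klf2* and *S1pr1*, and up to 3 genes per direction of each related list. The markers of other cells, *Slc7a3*, *Glul* and *Eif2ak4* were named after their values were seen. Members and lists were chosen with earlier results of these data known. The lists are other plasma membrane amino acid transporters, organelle carriers, the amino acid response, aminoacyl-tRNA synthetases, mTORC1 sensing, glutathione, glutamine and branched-chain amino acid use, glucose, lactate and iron uptake, and cell type markers. Sequences are from RefSeq (GRCm38.p6), and the fit was tested on simulated data.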

Additional observations from a re-analysis of the deposited data

How the results depend on the processing

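Over 16 alternatives, the 20 probe sets' log2 fold changes gave 293 calls that matched those reported, 14 that no longer passed and 8 that newly passed, with no called value changing sign. All of these changes concern *Slc38a1* and *Slc38a2*. At the printed threshold of 0.00046, 0 member probe sets or genes rose or fell. With the replicate block 2 probe sets rose and 2 fell, and 1 gene fell. The fallers also numbered 2 probe sets and 1 gene at a threshold of 0.05, with only probe sets of mean log2 of at least 6, with median centring, with an intensity trend and robust prior, and with array weights. After quantile normalization or removal of cross-hybridising probe sets 0 probe sets fell, and after cyclic loess 2 rose and 0 fell. With a gene's probe sets averaged, 0 genes rose and 1 fell. With single arrays left out, 0 to 1 probe sets and 0 to 1 genes rose, and 0 probe sets and 0 genes fell. Cyclic loess moved the median of genes with a mean of at least 10 to 0.02 and that of the 10 members to -0.13, while that of all genes was 0.01, against -0.01 as deposited. The cause of these shifts was not tested. Signal near the lower end limits *Slc7a11* and 1 probe set of *Slc7a1*.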
